A study of Caenorhabditis elegans with 2 samples.

Results

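The cuticle collagen genes of Caenorhabditis elegans were examined for chromatin immunoprecipitation sequencing (ChIP-seq) peaks of CEH-45, a homeodomain transcription factor of the goosecoid class, in late embryos. Members were the nuclear protein-coding genes whose symbols begin with col-, rol-, sqt- or bli-, together with 11 dpy- genes (dpy-2, dpy-3, dpy-4, dpy-5, dpy-7, dpy-8, dpy-9, dpy-10, dpy-13, dpy-14 and dpy-17). The rule goes by name and holds no measured value, but it was chosen with earlier results of these data known. This gave 180 of 19973 protein-coding genes: 156 col-, 11 dpy-, 6 bli-, 4 rol- and 3 sqt- genes. The RefSeq product names a cuticle collagen, a collagen or the cuticle collagen N-terminal domain for 176 of them. The other 4 are rol-3 (Protein roller-3), bli-3 (Dual oxidase 1), bli-4 (an endoprotease) and bli-5 (a Kunitz-type protein), so the name rule also takes in a few genes that act on the cuticle without being collagens.

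The study has 1 group of 2 samples, labelled as biological replicates 1 and 2, and no second condition, so each result sets the members against all protein-coding genes of the same libraries. Worms of strain RW12292 carry an insertion, made with CRISPR at the ceh-45 locus, that fuses the protein to TY1, EGFP and 3xFLAG tags. Whole late embryos, obtained by egg bleaching and labelled with an age of 2 hours, were sonicated (Bioruptor, fragments of 200 to 800 bp) and the tagged protein was precipitated with an antibody to GFP, although a further label field names ceh-45 as the antibody. Whole embryos mix many cell types, and the labels name no tissue. No unmodified strain was analysed here.

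The nematode cuticle is an extracellular coat made mostly of small collagens that the hypodermis and other surface cells secrete. The first cuticle is laid down late in embryogenesis and a new one is made at each molt, and collagen genes are transcribed in pulses during these periods. A cuticle collagen is hydroxylated by prolyl 4-hydroxylases, assembled into trimers through its Gly-X-Y repeats, cut by proteases such as BLI-4, and crosslinked through tyrosines with the help of the oxidase BLI-3. Mutants give the genes their names: dumpy (dpy), roller (rol), squat (sqt) and blistered (bli). Goosecoid-class homeodomains are known to prefer the word TAATCC.

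A peak was given to a gene when its summit lay from 2000 bp upstream to 500 bp downstream of any annotated transcript start. The deposited lists order candidate peaks by the irreproducible discovery rate (IDR), an estimate of how many peaks down to a given rank fail to repeat, and a thresholded set keeps the best of them. The larger list over both replicates holds 108916 candidates and its thresholded set 548 peaks. The conservative pair holds 71732 and 463, replicate 1 has 41437 and 258 of its own, and replicate 2 has 43328 and 227. Signals are the authors' values, printed in their units. Read counts are not part of the lists, which leaves the depth unknown and gives a single signal no interval.

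In the larger set 6 of the 180 members had a peak: col-85, col-94, col-185, col-174, col-71 and col-95. Sequences of 151 bp are shown around 5 of these summits, since they carry the member peaks that passed, and they are given in 2 sets. In the first set the capitals are the bases of an annotated small RNA gene. All sequences are the plus strand of build ce11, 5′ to 3′, read from the reference assembly of the same coordinates.
col-85, chrII:12494686-12494836: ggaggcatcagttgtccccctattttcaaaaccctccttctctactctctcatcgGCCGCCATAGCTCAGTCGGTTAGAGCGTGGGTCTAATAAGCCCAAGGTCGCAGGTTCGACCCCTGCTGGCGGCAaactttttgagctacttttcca
col-185, chrX:13511931-13512081: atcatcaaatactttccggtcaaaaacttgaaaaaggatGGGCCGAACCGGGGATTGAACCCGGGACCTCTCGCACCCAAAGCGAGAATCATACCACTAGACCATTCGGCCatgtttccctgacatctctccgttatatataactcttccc
The capitals are a tRNA-Ile gene at col-85 (plus strand, chrII:12494741-12494814) and a tRNA-Pro gene at col-185 (minus strand, chrX:13511970-13512041). A tRNA carries an amino acid to the ribosome. The small RNA gene at the col-94 peak is an snRNA gene, for a small nuclear RNA. The exact gene sequence occurs 20 times in the assembly for this tRNA-Ile, 24 times for this tRNA-Pro and 17 times for this snRNA. Reads from a copy can thus also match others. How the authors placed such reads is not given in the sources used here.

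At the other 3 summits no tRNA, snRNA, snoRNA or rRNA gene lay within 250 bp, and the capitals mark the 6-base word that occurs most often in the sequence shown.
col-174, chrX:7544955-7545105: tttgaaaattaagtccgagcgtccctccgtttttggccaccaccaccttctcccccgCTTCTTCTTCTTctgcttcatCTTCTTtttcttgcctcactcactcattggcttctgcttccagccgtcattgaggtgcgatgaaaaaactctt
col-71, chrII:3502170-3502320: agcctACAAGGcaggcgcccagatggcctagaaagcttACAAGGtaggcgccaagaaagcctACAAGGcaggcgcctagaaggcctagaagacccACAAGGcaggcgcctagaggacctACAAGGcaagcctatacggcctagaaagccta
col-95, chrIII:11701970-11702120: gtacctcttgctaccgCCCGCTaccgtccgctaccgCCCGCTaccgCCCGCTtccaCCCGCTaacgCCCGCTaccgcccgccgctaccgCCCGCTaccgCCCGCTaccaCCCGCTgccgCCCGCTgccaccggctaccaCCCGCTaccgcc
Around the col-95 summit CCCGCT occurs 10 times, in a 10-bp repeat in which 81.6% of bases match those 10 bp on, and GC makes up 78.2% of the bases within 50 bp of the summit. Around the col-71 summit ACAAGG occurs 5 times in a 33-bp repeat with a self-match of 61.9%. Among all candidates the col-71 self-match stood at percentile 98.2 and that of col-95 at percentile 99.3. The col-174 sequence has 4 matches of CTTCTT, some overlapping in a run and another apart from it. It has no such repeat, with a self-match of 38.7% at percentile 71.9. TAATCC occurs on neither strand in any of the 5 sequences.

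The 6 members are 3.33% of the 180 (exact 95% interval 1.23 to 7.11%, counting error only), against 2.15% of all protein-coding genes (429), a background that lies inside the interval. The conservative set held 3 members (1.67%, exact interval 0.345 to 4.79%), against 1.83% of all genes. Replicate 1's own set held 2 members (1.11%), against 1.12% of all genes. Replicate 2's own set held 3 (1.67%), against 0.886%. In the larger set 3 of the 6 members had their peak within 250 bp of a small RNA gene. Of the 429 protein-coding genes with a peak of that set, 103 (24.0%) did. The 3 members with small RNA genes make up all of the conservative and single-replicate counts: col-85 and col-94 were in all 4 sets, and col-185 in all but that of replicate 1. The peaks of col-174, col-71 and col-95 were in the larger set only.

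**Figure D1:**
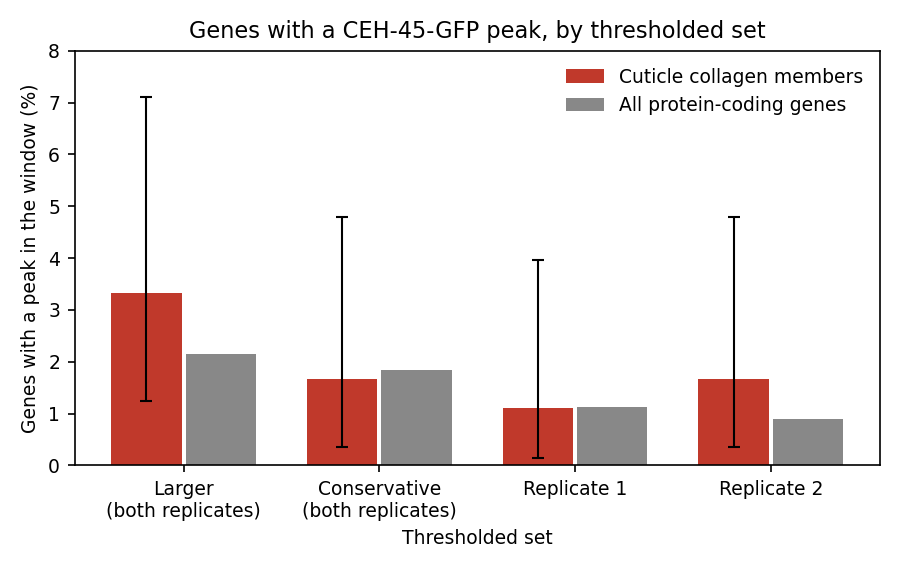
Percentage of genes with a peak summit in the window (y axis) for each of the 4 thresholded sets (x axis), for the 180 cuticle collagen members (left bar, with exact 95% binomial interval) and all 19973 protein-coding genes (right bar). The member interval spans the all-gene bar in each set, from 3.33% against 2.15% in the larger set to 1.11% against 1.12% in replicate 1.

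The strongest member peak was at col-85, a gene for a cuticle collagen on chromosome II. It ran from 12494609 to 12494912 with its summit at +334 bp, in an intron of col-85 that also holds the tRNA-Ile gene. Its signal was 211.9 (IDR 0.000199), with 105.4 in replicate 1 and 107.5 in replicate 2, each in the replicate's own list. Both replicates therefore placed it far above the members' median of 19.6 in replicate 1 and 18.9 in replicate 2.

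The peak assigned to col-94 (summit 1830 bp upstream) had a signal of 178.7 (IDR 0.000352), with 93.6 in replicate 1 and 76.5 in replicate 2. It lies over the snRNA gene inside an intron of dhc-4, which encodes a dynein heavy chain, and a further passing peak of signal 28.4 has its summit 200 bp away, outside the col-94 window. The col-185 peak (chrX:13511854-13512157, summit 909 bp upstream) had a signal of 93.4 (IDR 0.00301), with 41.9 in replicate 1 and 55.8 in replicate 2. These 3 were the highest of all 180 members, at percentiles 99.9, 99.8 and 99.04 of the protein-coding genes with a candidate.

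The members that passed without a small RNA gene had lower signals. The peak at col-174 (chrX:7544878-7545181, summit 1779 bp upstream) had a signal of 60.3 (IDR 0.00705), 30.3 in replicate 1 and 28.3 in replicate 2, and lies over the noncoding genes F46C8.19 and F46C8.21. The col-71 peak (chrII:3502093-3502396, summit at +325 bp in its own intron, also assigned to Y49F6B.2) had a signal of 48.1 (IDR 0.00327), 22.9 in replicate 1 and 24.1 in replicate 2. A stronger candidate of col-71, at 200 bp upstream, had a signal of 59.3 with 26.0 in replicate 1 and 35.3 in replicate 2, and did not pass (IDR 0.0235).

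The col-95 peak (chrIII:11701893-11702196, summit 1949 bp upstream) had a signal of 26.9 (IDR 0.00537), below the median of all genes. It lies in an intron of pqn-84, whose start is nearer (1786 bp). Another passing peak of signal 51.4, with its summit 214 bp away, overlaps it but falls outside the col-95 window. Overlapping candidates reached 33.2 in replicate 1 and 31.2 in replicate 2, but their summits fall outside the col-95 window. Inside that window replicate 1's own list reached 20.2 and that of replicate 2 had no candidate. Neither replicate's own set had a peak there.

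None of the 6 summits lay close to the start of its collagen gene. In a narrower window, from 500 bp upstream to 100 bp downstream, 0 of 180 members had a passing peak, which by 3 counts of the total allows a share of up to 1.67%, against 1.08% of all protein-coding genes. Candidates of any rank were found there at 101 members (56.1%), against 59.9% of all genes, with a median highest signal of 24.3 against 23.5. The strongest in that narrow window were at col-93 (62.5), col-71 (59.3), col-2 (58.1), col-87 (50.3) and col-111 (50.3).

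**Figure D2:**
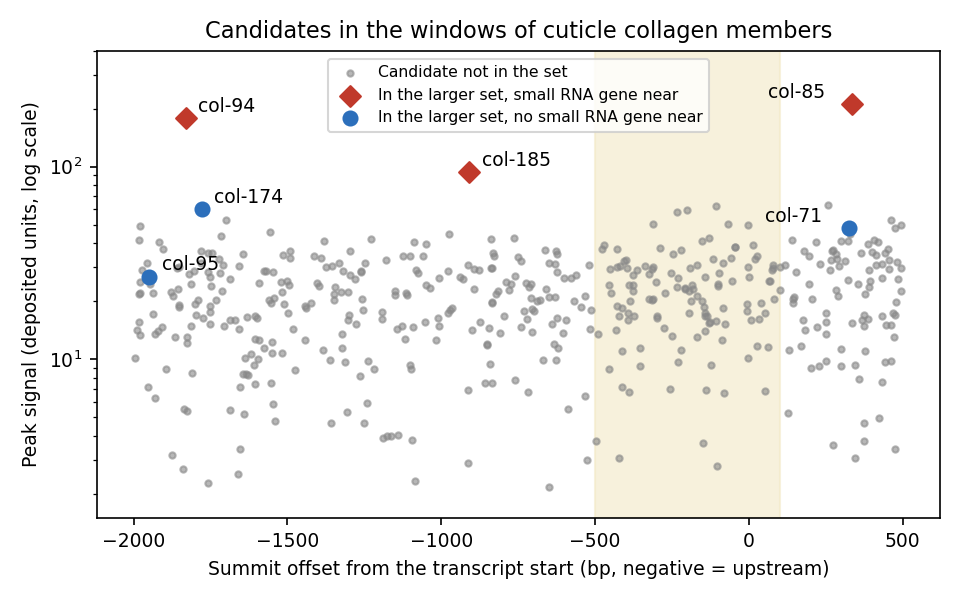
Summit offset from the transcript start (x axis, bp) against the deposited peak signal (y axis, log scale) for every candidate in a member's window. Diamonds are passing peaks within 250 bp of a small RNA gene, blue circles other passing peaks, grey points candidates that did not pass. The shaded span from 500 bp upstream to 100 bp downstream holds no passing peak.

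Small RNA genes stood near members at about the rate of other genes: 5 members had one in the window (2.78%), against 2.89% of all genes. Of these 5 members 3 had a passing peak, against 20.8% of the 578 protein-coding genes with a small RNA gene in the window. Of the 175 members with none 3 had a passing peak, against 1.59% of all such genes. The other 2 small RNA genes were a tRNA-Arg gene at col-54 on chromosome I, whose candidate had a signal of 34.7 (IDR 0.412; 18.4 in replicate 1 and 14.3 in replicate 2), and the snRNA gene K03B8.10 at col-155 on chromosome V, with 31.7 (IDR 0.345; no candidate in replicate 1 and 15.5 in replicate 2). The median highest signal of members was 93.4 with a small RNA gene and 30.9 without, while for all genes it was 41.2 with one and 30.0 without. The part of the small RNA genes in these signals was not tested.

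A candidate of the larger list, of any rank, was present at 162 members (90%), against 90.1% of all protein-coding genes. Over those genes the median highest signal was 31.1 in members and 30.2 in all genes. The quartiles were 24.6 and 37.5 in members and 23.5 and 37.9 in all genes. In the replicates' own lists the medians were 19.6 against 19.1 in replicate 1 and 18.9 against 18.1 in replicate 2. Of the 162 members 91 (56.2%) were above the all-gene median, and 15 (9.26%) reached the upper decile of all genes, which starts at 46.8. Below col-85, col-94 and col-185 the next member was col-111 at 62.9.

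**Figure D3:**
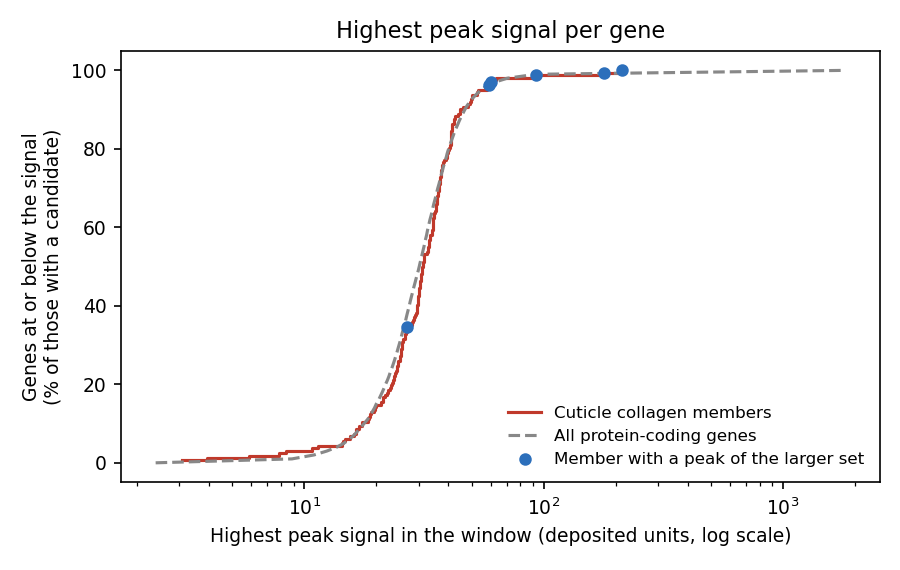
Cumulative percentage of genes (y axis) by highest peak signal in the window (x axis, deposited units, log scale), for the 162 members with a candidate (solid line) and all 17997 protein-coding genes with a candidate (dashed line). Blue points are the 6 members with a passing peak. The curves run close together, with medians of 31.1 in members and 30.2 in all genes.

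Counted by peak, the members' windows held 465 distinct candidates, of which 6 passed (1.29%), against 0.608% of the 50972 candidates in windows of protein-coding genes. Members averaged 2.73 candidates, against 3.17 for all genes, and also had fewer annotated starts, 1.18 against 1.49. Among genes with 1 start the averages were 2.65 in members and 2.63 in all genes. With the limit at an IDR of 0.05, 14 members had a candidate (7.78%), against 4.95% of all genes.

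The 8 members that this wider limit adds had an IDR between 0.01 and 0.05. The gene col-111 had a signal of 62.9 (IDR 0.0129) at +257 bp in its own coding exon, 35.2 in replicate 1 and 23.2 in replicate 2. The gene col-93 had 62.5 (IDR 0.0140) at 108 bp upstream, 20.8 in replicate 1 and 42.1 in replicate 2, and 47.6% of its window is sequence with a second copy in the assembly. The neighbours col-39 and col-79 shared a candidate with dph-2, a signal of 44.6 (IDR 0.0184), with 28.2 in replicate 1 and 19.9 in replicate 2. The others were col-138 (23.7, below the all-gene median, IDR 0.0252), col-63 (52.9, IDR 0.0304), col-2 (58.1, IDR 0.0370) and col-101 (50.1, IDR 0.0452). For col-2 replicate 2 had 41.9 and replicate 1 had no candidate in the window.

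The other col- genes among the 20 members of highest signal had an IDR above 0.05. They were col-103 with 53.1 (25.9 in replicate 1 and 28.2 in replicate 2 at that peak), col-87 with 50.3 (26.8 and 22.996), col-140 with 49.1 (29.8 and 19.2) and col-130 with 48.3 (22.3 and 29.7). Next came col-178 with 45.9 (33.2 and 15.1), col-46 with 43.8 (28.1 and 18.7) and col-42 with 42.6 (25.2 and 16.9). Neither replicate was the higher one throughout. Of the 20 members 19 had a candidate of both replicates at the peak, the exception being col-2, against 73 of all 162 members. The 20 were picked by their signal in the list over both replicates and are part of the 162. The comparison therefore says nothing about replicate agreement particular to them.

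Sequences of 50 bp on either side of 5 summits that did not pass are shown. They are for 4 of the members that the wider IDR limit adds and for dpy-13. This gene is the highest of the 24 dpy-, rol-, sqt- and bli- members. Capitals mark any of the 8 searched words on either strand.
col-111, chrIV:4656257-4656357: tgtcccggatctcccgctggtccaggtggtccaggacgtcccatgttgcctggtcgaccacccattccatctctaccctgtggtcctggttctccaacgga
col-93, chrIII:10985667-10985767: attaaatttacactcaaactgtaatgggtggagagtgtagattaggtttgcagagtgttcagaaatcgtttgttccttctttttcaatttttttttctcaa
col-2, chrIV:10085634-10085734: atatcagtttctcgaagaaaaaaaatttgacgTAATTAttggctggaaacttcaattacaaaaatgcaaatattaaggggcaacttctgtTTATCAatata
col-101, chrIV:326482-326582: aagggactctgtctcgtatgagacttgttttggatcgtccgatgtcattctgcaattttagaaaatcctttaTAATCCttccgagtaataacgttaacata
dpy-13, chrIV:4236060-4236160: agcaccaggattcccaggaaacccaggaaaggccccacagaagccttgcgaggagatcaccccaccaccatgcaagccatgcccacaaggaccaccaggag
The col-101 sequence holds TAATCC, and the col-2 sequence holds TAATTA and TTATCA, the reverse complement of TGATAA. The col-111, col-93 and dpy-13 sequences hold none of the words. The col-111 and dpy-13 summits lie in coding exons, and the dpy-13 sequence, on the coding strand, repeats cca and gga, codons of the proline and glycine that fill much of the Gly-X-Y repeat.

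The 24 dpy-, rol-, sqt- and bli- members include the collagens with the best-known mutant phenotypes. Of these 24 members 0 had a passing peak, which by 3 counts of the total allows a share of up to 12.5%, against 2.15% of all protein-coding genes, so the count does not set them apart from that background. A candidate was present at 22, and their lowest IDR was 0.118. Their median highest signal was 33.3, against 30.2 for all genes, and 13 of the 22 were above that all-gene median. The highest was dpy-13, whose mutants are short and stout, with 49.8 at +496 bp in its own coding exon, 21.9 in replicate 1 and 27.3 in replicate 2.

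The 6 listed collagens of the circumferential furrows of the cuticle are dpy-2, dpy-3, dpy-7, dpy-8, dpy-9 and dpy-10. The neighbours dpy-2 and dpy-10 shared one candidate of 42.0 (IDR 0.422), found in replicate 1 (23.5) but with no overlapping candidate in replicate 2. The gene dpy-3 had 36.8, with 17.96 in replicate 1 and 14.3 in replicate 2, dpy-9 had 29.5 and dpy-8 had 25.5. The lowest was dpy-7 with 11.4 at 354 bp upstream, in a coding exon of another gene, and with no candidate in either replicate's own list. Among all genes these furrow genes ran from percentile 2.22 at dpy-7 to percentile 83.6 at dpy-2 and dpy-10.

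The strut and blister genes bli-1, bli-2 and bli-6, whose mutants blister, had 36.4, 33.4 and 33.3. Of these bli-1 had 17.4 in replicate 1 and 22.2 in replicate 2. Among the collagens of the annuli and of body shape, dpy-17 had 40.6 with 31.9 in replicate 2 and no candidate in replicate 1. The gene sqt-1 had 35.9, sqt-3 35.3 and sqt-2 34.5, dpy-5 had 30.1, dpy-14 23.4 and rol-6, the gene of the common roller transformation marker, 22.4. No candidate of the larger list fell in the windows of dpy-4 and rol-8, where replicate 2's own list had 20.1 and 10.9. The remaining members of this naming group were bli-4 (33.3), bli-3 (30.8), rol-3 (23.9), rol-1 (22.9) and bli-5 (16.4). The adult-specific collagen gene col-19 had 16.97, with no candidate in either replicate, and col-99, which encodes a transmembrane collagen, had 37.3.

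**Figure D4:**
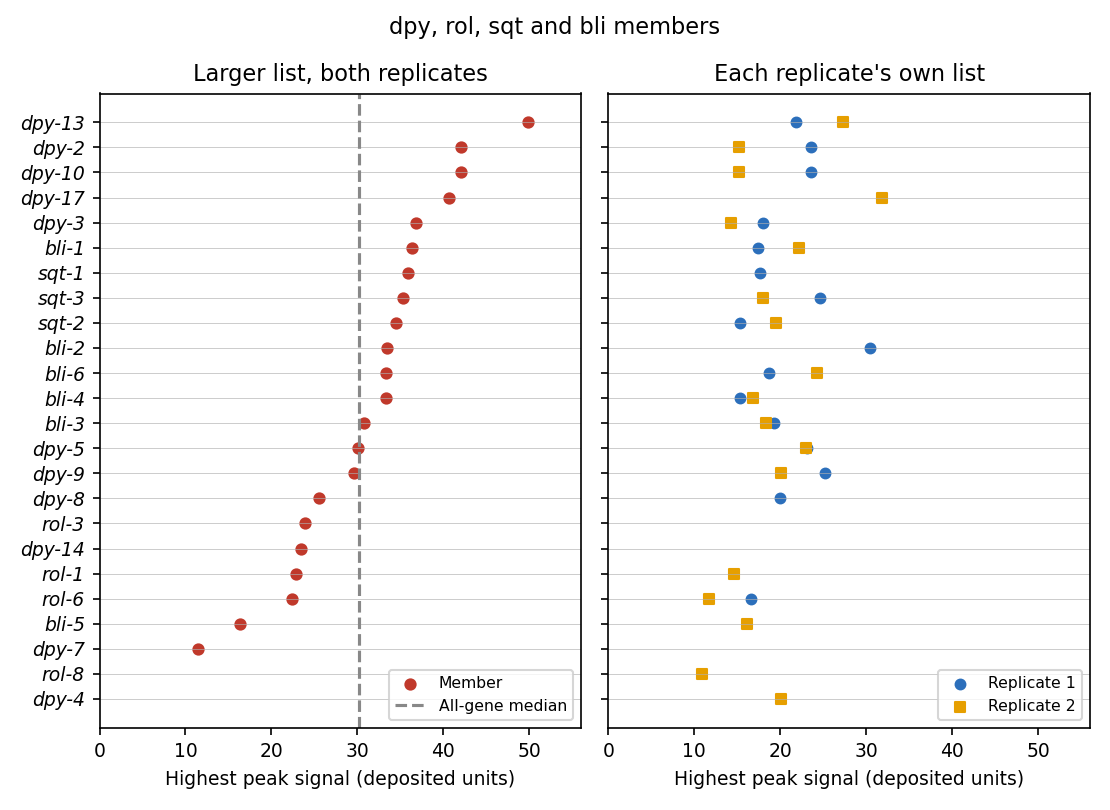
Highest peak signal in the window (x axis, deposited units) of the 24 dpy, rol, sqt and bli members (rows), in the larger list over both replicates (left, with the all-gene median of 30.2 as a dashed line) and in each replicate's own list (right). A missing point is a gene with no candidate in that list. Values in the left panel run from 11.4 at dpy-7 to 49.8 at dpy-13.

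Of other genes of cuticle formation, 1 of 22 annotated modification and processing enzymes, a list that includes bli-3, bli-4 and bli-5, had a passing peak, against 2.15% of all protein-coding genes. It was dpy-11, a thioredoxin-like enzyme of the hypodermis, with 74.5 at +158 bp (IDR 0.00720), 44.7 in replicate 1 and 32.4 in replicate 2, in the larger and conservative sets. The prolyl 4-hydroxylase gene dpy-18 had 48.1 and its disulfide isomerase partner pdi-2 51.1, neither passing. Of 21 annotated regulators of collagen genes none was in the larger set. The strongest were peb-1 (54.3, in replicate 1's set only), the nuclear receptor gene nhr-23 (52.7) and blmp-1 (50.2). Of 28 other cuticle and apical matrix genes and of 5 basement membrane and other collagens, col-99 among them, none passed. The highest were mlt-9 (55.5), fbn-1 (54.6) and dex-1 (44.4) among the matrix genes, and mec-5 (37.3), col-99 (37.3) and cle-1 (34.7) among those collagens. The tagged gene ceh-45 itself had 8 candidates and none passing, the highest of 40.4 at 99 bp upstream (IDR 0.523), and the replicates' own lists reached 20.02 in replicate 1 and 24.98 in replicate 2.

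The same 3 members, col-85, col-94 and col-185, were highest in both replicates. A candidate was found in both replicates' own lists for 96 members (53.3%), against 52.5% of all genes, in replicate 1 only for 30, in replicate 2 only for 28 and in neither for 26. Over the 96 members the log10 highest signals had a Pearson correlation of 0.48 and a Spearman correlation of 0.16, and without the 5 of them that passed (91 members) these were 0.12 and 0.04. For all 10490 genes with a candidate in both lists the coefficients were 0.44 and 0.28. Genes with a passing peak are kept in these, so they stand beside the 0.48 and 0.16 of members. These points share libraries, and some share a peak, so the coefficients are descriptions across genes.

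**Figure D5:**
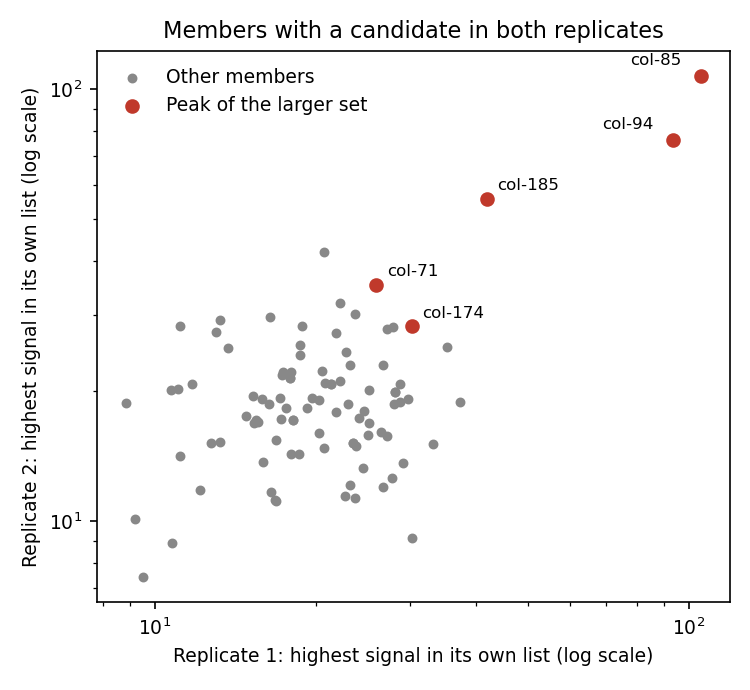
Highest signal of each of the 96 members with a candidate in both replicates, in replicate 1 (x axis) against replicate 2 (y axis), each in its own list and on a log scale. Red points have a passing peak; col-85, col-94 and col-185 stand apart from the other members, which form a cloud with a Pearson correlation of 0.12 once all 5 red points are left out.

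Highest peaks lay in the member's own coding exon for 34 members (21.0%), against 11.97% of all genes. Own coding sequence also makes up more of the members' windows, 13.8% against 11.2% of bases, and is richer in GC, 49.7% against 43.1%. These 34 peaks had a GC content of 53.3 ± 8.0% (SD), against 41.5 ± 10.4% at the other 128 members, and a median signal of 34.4 against 30.5. None of the 34 passed, and the highest was that of col-111. Of all protein-coding genes 2.15% had a passing peak, so a count of 0 in 34 does not set these peaks apart from that background. Over all members the GC content at the highest peak was 44.0 ± 11.0%, against 39.9 ± 8.92% over all genes (SD). From the start to 500 bp downstream the median candidate signal was 23.7 in members and 19.4 in all genes, whereas from 2000 to 1500 bp upstream it was 18.9 in members and 19.2 in all genes. The part of GC content in these signals was not tested.

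Many peaks cannot be tied to 1 gene. The highest peak was also assigned to another protein-coding gene for 60 members (37.04%), against 39.4% of all genes. In all, 7 peaks were the highest of 2 members each (14 members): dpy-2 with dpy-10, col-39 with col-79, col-20 with col-73, col-50 with col-51, col-159 with col-160, col-3 with col-117 and col-9 with col-44. A tandem repeat with a self-match of at least 60% underlay the highest peak of 8 members (4.94%), against 1.42% of all genes, and such repeats underlay 7.48% of the larger set and 2.02% of all candidates. Their median signal in members was 33.0, against 31.0 at members without one.

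No candidate of the larger list was found for 18 members (10%), against 9.89% of all genes. Some of them had a candidate in another list, such as col-35 with 9.16 in replicate 1 and 10.1 in replicate 2. The median share of the window in 31-base words with a further copy in the assembly was 0.121% in these 18 and 1.60% in the 162 with a candidate, while over all genes it was 0.182% without a candidate and 0.405% with one. That share was above 20% for 1 of the 18 members (5.56%), col-126, and for 14 of the 162 (8.64%), with col-117 at 68.7% and col-3 at 68.6% the highest. Over all genes it was above 20% for 18.3% of those without a candidate and 9.11% of those with one. The part of multi-copy sequence in the missing candidates was not tested.

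The 8 words were counted on both strands within 50 bp of the summit at the 155 distinct highest peaks of members and at the highest peaks of all genes. TAATCC was found at 4 member peaks (2.58%), against 3.50% of gene peaks and 3.65% of all 108916 candidates. The 4 were at bli-6, col-101, col-89 and dpy-5. TAATTA, a general homeodomain word, was at 1 member peak, that of col-2 (0.645%), against 3.50% of gene peaks. AGGTCA, a nuclear receptor half-site, was at 10 (6.45%), against 2.95%, and AGATAA at 11 (7.10%), against 5.13%. TGATAA was at 6 (3.87%), against 8.02%, GAGAGA at 12 (7.74%), against 7.19%, GGGCGG at 5 (3.23%), against 3.36%, and GTTCGA at 9 (5.81%), against 3.802%.

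The promoters alone, from 250 bp upstream to 50 bp downstream, gave the composition of the sequence itself without the peaks. TAATCC was in 11 of 180 member promoters (6.11%), against 9.37% of all 19973. AGGTCA was in 27 (15%), against 8.27%, GGGCGG in 28 (15.6%), against 7.83%, and AGATAA in 51 (28.3%), against 21.2%. TAATTA was in 26 (14.4%), against 15.5%, and TGATAA in 56 (31.1%), against 30.2%. GAGAGA was in 52 (28.9%), against 21.8%, and GTTCGA in 22 (12.2%), against 9.85%. AGGTCA was thus more frequent than over all genes both at member peaks and in member promoters as a whole. These promoters were taken whether or not they hold a peak. The same held for AGATAA (7.10% against 5.13% at peaks), for GAGAGA (7.74% against 7.19%) and for GTTCGA (5.81% against 3.802%). It was therefore not particular to the nuclear receptor half-site. The remaining words were less frequent at member peaks than at the highest peaks of all genes.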

How the data were processed

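ChIP-seq peak lists of 2 biological replicates were used. Per the labels the build is ce11, and per the deposited notes the lists derive from replicate alignments with a control, which was not analysed here. The aligner, peak caller and depth: not given in the sources used here. The deposited signal of each peak was used as the authors gave it, with its normalization unstated, so signals were compared within a list. The authors' −log10 global IDR, from the ranked lists, is printed here as the IDR. Every peak of the larger set had an IDR of at most 0.01, while 124 other candidates with such a value are absent from that set, 0 of them in a member's window. What the larger list and the single-replicate lists compared is not stated. IDR favours regions enriched in every library for any reason.

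Genes came from Ensembl release 115 and products from RefSeq, on the assembly with ce11 coordinates. All 180 members have the same symbol in both. Summits were assigned to every gene in whose window they fell. Small RNA genes (tRNA, snRNA, snoRNA or rRNA) counted as near a summit within 250 bp. Self-match is the highest percentage of identical bases at a shift of 6 to 40 bp. Shares above 0 have exact 95% binomial intervals where one is given, a count of 0 has a limit of 3 counts of the total, and no chance test was made: with 1 group there is no contrast over samples. Scripts used Python 3.11.15, numpy 2.4.6, pandas 2.3.3, scipy 1.17.1 and matplotlib 3.10.9, and were tested on simulated peaks.

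The members, gene lists, words and rules were chosen with earlier results of these data known. Named genes were members in any thresholded set, the members of highest signal, every dpy-, rol-, sqt- and bli- member, col-19, col-99, ceh-45, the strongest genes of each list, and genes sharing their peaks. The listed names nas-35, ram-4 and elt-5 are not symbols of this annotation. Groupings of members just outside the IDR limit, in coding exons and on tandem repeats were chosen after their values were seen. The sequence at the col-94 peak is not reported here.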

Additional observations from a re-analysis of the deposited data

How the results depend on the processing

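The count of 6 members in the larger set (3.33%, against 2.15% of all genes) was 6 with any overlap of the peak interval and 5 with each peak given to its nearest start only (all genes 1.38%). It was 0 members (0%) in the window from 500 bp upstream to 100 bp downstream, against 1.08%. It was 3 in the conservative lists, against 1.83% of all genes. With a single replicate's own lists it was 2 to 3 members (1.11 to 1.67%), against 0.886 to 1.12% of all genes. Leaving out peaks near small RNA genes left 3 members, against 1.64% of all genes. With IDR limits of 0.001 and 0.05 it was 2 (1.11%, against 0.501%) and 14 (7.78%, against 4.95%). Alternatives chosen after seeing the data were the 176 members with a collagen product, which held the same 6, and leaving out peaks near small RNA genes or on tandem repeats, which left 1 member, col-174 (0.556%, against 1.58% of all genes). The median highest signal of members against all genes, 31.1 against 30.2, was 24.3 against 23.5 in the narrow window, 32.6 against 31.6 in the conservative lists, 29.7 against 27.7 with the nearest start only, 30.8 against 30.0 without peaks near small RNA genes and 33.2 against 31.0 with any overlap. In single replicates it was 18.9 to 19.6 in members and 18.1 to 19.1 in all genes. The highest signals of 21 named members, chosen for high or passing signals, differed in the replicates' own lists, which are on their own scales. In the conservative list their values were identical to those of the larger list, so this is not a separate measurement. Some other members differed there, such as col-172 with 38.1 in the larger list and 18.9 in the conservative one. Restricting members by Gly-X-Y repeats was not run, since no protein table was used here. No paired analysis was possible because there is 1 group. Depth is unknown, and the cause of these differences was not tested beyond what each setting leaves out.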
